A study of Arabidopsis thaliana with 18 samples.

Results

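The cytosolic ribosomal protein genes of Arabidopsis thaliana are described here in seedlings moved out of darkness into light, in a mutant of JMJ17 and in its wild type. A list of 57 loci, 36 for proteins of the large subunit and 21 for proteins of the small subunit, was searched in the locus column of the deposited table of 6847 probe sets, and a probe set was kept when that column held at least 1 of the loci. This gave 8 probe sets. Of these, 6 name a single locus (RPS18C, EMB3010, AT5G23900, RPL16A, AT3G13580 and AT5G27850) and 2 name a ribosomal protein locus together with another gene (RPL24A with PSBR, and AT5G02870 with AT5G44450). The other 49 loci were not analysed here. The table itself is a selection: each of its rows had an unadjusted p of 0.0237 or lower when jmj17-1 seedlings after 2 h of light were compared with jmj17-1 seedlings in the dark, while 9.81% of the other probe sets of the array were under 0.05 in that comparison. The rows thus appear to have been chosen on that comparison, which the file header does not state. A member present in the table had therefore already differed in that comparison, and nothing is said about ribosomal protein genes as a whole.

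The seedlings were jmj17-1, a mutant named for the gene of a demethylase of lysine 4 on histone H3, and wild type, both in the Col-0 background. All were grown without sucrose in darkness for 4 days and then given 0, 2, 4 or 8 h of light, and RNA of whole seedlings was hybridised to Affymetrix ATH1 arrays, on which a probe set is a group of short oligonucleotides for 1 transcript. Each genotype had 3 arrays in the dark and 2 arrays at each of the 3 light times, 18 in all. Where the replicates came from is not given, so p-values cover only how much these samples varied, possibly for technical reasons, and the small number of arrays limits the precision of every value. The targeted gene, JMJ17, was not analysed here, so the genotype labels rest on the deposited titles.

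The cytosolic ribosome of a plant is built from a large and a small subunit, each an assembly of ribosomal RNA and many proteins, and most of these proteins are encoded by several near-identical genes scattered over the genome. Ribosomal protein genes are usually among the most abundantly transcribed nuclear genes of growing tissue. In seedlings that green after darkness, translation in the cytosol supplies the proteins of the chloroplast that are encoded in the nucleus. Ribosomal protein S6 is the textbook substrate of the S6 kinase that acts downstream of the kinase TOR. Because paralogues are so alike, a probe set designed for 1 copy may also bind transcripts of another, and the values below belong to the probe set first.

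All levels are log2 of the deposited intensity, and a difference of 1 on this scale is a doubling. The light labels held on well-known light genes. In wild type after 2 h of light ELIP1 was higher by 5.62 ± 0.50 (log2, SE) and HY5 by 2.26 ± 0.14, while PORA fell by 2.47 on the log2 scale. The second jmj17-1 dark array stood apart. Its Pearson correlation with each of the other 2 jmj17-1 dark arrays was 0.985, while those correlated at 0.995 with each other. Several of the results that use it are also given without it. A second deposited value table held the same arrays, but 16 of its 18 columns carried the values of another title, and the titles of the first table were used throughout. A probe set passed a test when its adjusted p, from limma's moderated test with Benjamini-Hochberg adjustment over all 6847 rows, was under 0.05. Since whole seedlings were used, fewer cells of a type and less RNA per cell cannot be told apart in any value below.

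In wild type, the 6 probe sets of a single ribosomal protein locus were all lower after 2 h of light than in the dark, by 0.24 to 0.55 on the log2 scale. With the 2 shared probe sets, 8 of 8 passed, 7 of them lower and 1 higher. Of all rows, 89.5% passed in this comparison, so the count that passed is near the background. Of all rows 49% passed and were lower, and 40.5% passed and were higher. Over every probe set of the array 37.4% passed in either direction, 18.9% passing and lower and 18.4% passing and higher. After 4 h, 7 of 8 passed, 6 of them lower, against 71.5% of all rows passing, 40.1% lower and 31.3% higher. After 8 h, 6 of 8 passed, 5 of them lower, against 80.3% of all rows passing, 48.6% lower and 31.7% higher. The median difference of the 6 single-locus probe sets was -0.37, -0.44 and -0.35 at 2, 4 and 8 h, beside medians over all rows of -0.21, -0.10 and -0.20. All 6 lay below zero at each of the 3 times, also after a further quantile normalisation and after median centring, both run on the selected rows. Median centring lowered every wild-type difference between light and dark by a constant at each time. Values already below zero could only stay there, so their sign after centring adds nothing. At 2 h quantile normalisation and median centring each moved the median of all rows to -0.34. The median of the 6 moved to -0.47 after quantile normalisation and to -0.50 after median centring. The full value table holds the same values for these probe sets, so their differences there are the same and add nothing.

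**Figure D1:**
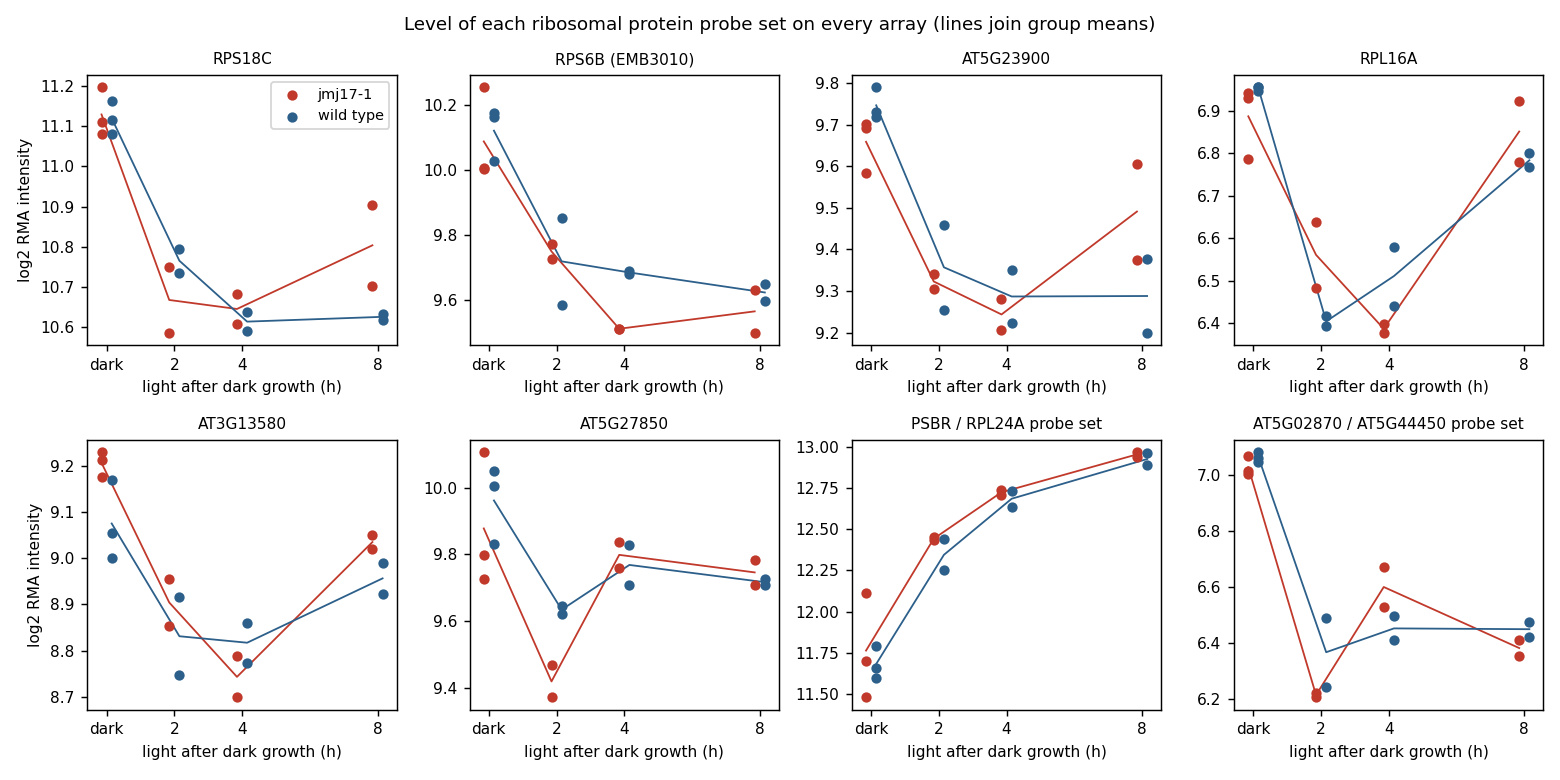
Log2 intensity of each of the 8 ribosomal protein probe sets (vertical axes, each with its own range that does not start at 0) against hours of light after dark growth (horizontal axes); each point is 1 array, jmj17-1 in red and wild type in blue, and lines join group means. The 6 single-locus probe sets are highest in the dark in both genotypes by group mean, RPL16A is lowest at 2 h in wild type and at 4 h in jmj17-1 and higher again at 8 h, and the probe set of PSBR and RPL24A climbs throughout.

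Among the small subunit genes, RPS18C encodes ribosomal protein S18. Its probe set read 11.11, 11.20 and 11.08 on the dark jmj17-1 arrays, then 10.59 and 10.75 at 2 h, 10.68 and 10.61 at 4 h, and 10.90 and 10.70 at 8 h. The wild-type arrays read 11.08, 11.12 and 11.16 before light, then 10.74 and 10.80 at 2 h, 10.64 and 10.59 at 4 h, and 10.62 and 10.63 at 8 h. Every light array of either genotype lay below every dark array, while the genotypes' ranges crossed in the dark, at 2 h and at 4 h. In wild type RPS18C fell by 0.35 at 2 h (SE 0.08, adjusted p = 0.000765), by 0.51 at 4 h (SE 0.08, adjusted p = 4.65e-05) and by 0.49 at 8 h (SE 0.08, adjusted p = 4.07e-05), which at 4 h is a level 0.705 times that in the dark. In jmj17-1 it fell by 0.48 at 4 h (adjusted p = 6.42e-05) and by 0.32 at 8 h (adjusted p = 0.00165).

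EMB3010, also named RPS6B, encodes ribosomal protein S6, the substrate of S6 kinase, and its symbol records an embryo defect of its mutant. It read 10.01, 10.25 and 10.004 on the dark jmj17-1 arrays, then 9.77 and 9.73 at 2 h, 9.51 and 9.51 at 4 h, and 9.63 and 9.50 at 8 h. Wild-type readings were 10.03, 10.17 and 10.16 before light, then 9.59 and 9.85 at 2 h, 9.68 and 9.69 at 4 h, and 9.65 and 9.60 at 8 h. The light arrays again lay below all dark arrays, and by group mean the level had not come back by 8 h in either genotype. In wild type EMB3010 fell by 0.40 at 2 h (SE 0.10, adjusted p = 0.00122), by 0.44 at 4 h (adjusted p = 0.000905) and by 0.50 at 8 h (adjusted p = 0.000222). In jmj17-1 it fell by 0.58 at 4 h (SE 0.10, adjusted p = 7.17e-05) and by 0.52 at 8 h (adjusted p = 0.000145), the latest level being 0.696 times the dark level. Without the outlying jmj17-1 dark array the EMB3010 differences were -0.49 at 4 h and -0.44 at 8 h.

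Of the large subunit genes, RPL16A encodes ribosomal protein L16. Its probe set read 6.94, 6.93 and 6.79 on the dark jmj17-1 arrays, then 6.64 and 6.48 at 2 h, 6.40 and 6.38 at 4 h, and 6.92 and 6.78 at 8 h. On the wild-type arrays it stood at 6.96, 6.95 and 6.96 before light, then 6.39 and 6.42 at 2 h, 6.44 and 6.58 at 4 h, and 6.80 and 6.77 at 8 h. The pattern is a dip. In wild type the 8 h arrays lay between the dark arrays and those of 2 and 4 h, and in jmj17-1 1 of them lay within the range of the dark arrays and the other just below it. In wild type RPL16A fell by 0.55 at 2 h (SE 0.08, adjusted p = 1.37e-05), the lowest difference of the 6, to 0.684 times the dark level, and by 0.44 at 4 h (adjusted p = 0.000151). At 8 h its difference was -0.17 (SE 0.08, adjusted p = 0.0613), and this value passed after quantile normalisation (adjusted p = 0.0417) and after median centring (adjusted p = 0.0297). In jmj17-1 it fell by 0.50 at 4 h (adjusted p = 4.26e-05), and at 8 h the difference from the dark was -0.04 (adjusted p = 0.687).

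AT5G23900, AT3G13580 and AT5G27850 are annotated in the deposited table to the large subunit of the cytosolic ribosome, and no protein family is given to them here. AT5G23900 read 9.69, 9.70 and 9.58 on the dark jmj17-1 arrays, then 9.31 and 9.34 at 2 h, 9.28 and 9.21 at 4 h, and 9.61 and 9.38 at 8 h. The wild-type arrays read 9.72, 9.79 and 9.73 before light, then 9.26 and 9.46 at 2 h, 9.22 and 9.35 at 4 h, and 9.38 and 9.20 at 8 h. One jmj17-1 array at 8 h reached the range of the jmj17-1 dark arrays, and no wild-type light array reached a dark one. In wild type AT5G23900 fell by 0.39, 0.46 and 0.46 at 2, 4 and 8 h (SE 0.09 each, adjusted p = 0.00106, 0.000383 and 0.000294). In jmj17-1 it fell by 0.41 at 4 h (adjusted p = 0.0008), and at 8 h the difference was -0.17 (adjusted p = 0.105), or -0.28 without the first jmj17-1 array at 8 h, where it passed (adjusted p = 0.0301).

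AT3G13580 read 9.18, 9.23 and 9.21 on the dark jmj17-1 arrays, then 8.85 and 8.96 at 2 h, 8.79 and 8.70 at 4 h, and 9.05 and 9.02 at 8 h. Wild-type readings were 9.001, 9.05 and 9.17 before light, then 8.75 and 8.92 at 2 h, 8.77 and 8.86 at 4 h, and 8.92 and 8.99 at 8 h. Within each genotype the light arrays lay below the dark arrays, by less at 8 h than at 4 h. In wild type AT3G13580 fell by 0.24 at 2 h (SE 0.08, adjusted p = 0.00907) and by 0.26 at 4 h (adjusted p = 0.00853), and at 8 h the difference was -0.12 (adjusted p = 0.174). Both calls rested on 1 array: without the first wild-type array at 2 h the difference there was -0.16 (adjusted p = 0.121), and without the first wild-type array at 4 h it was -0.21 (adjusted p = 0.074). In jmj17-1 it fell by 0.46 at 4 h (adjusted p = 8.24e-05), and at 8 h the difference was -0.17 (adjusted p = 0.0571). That AT3G13580 value passed without the dimmest 40% of rows (adjusted p = 0.0444) and without either wild-type array at 2 h (adjusted p = 0.0453 each).

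AT5G27850 was the member whose light difference was smallest at 4 h in each genotype. It read 9.73, 10.11 and 9.80 on the dark jmj17-1 arrays, then 9.47 and 9.37 at 2 h, 9.84 and 9.76 at 4 h, and 9.78 and 9.71 at 8 h. On the wild-type arrays it stood at 9.83, 10.004 and 10.05 before light, then 9.62 and 9.65 at 2 h, 9.83 and 9.71 at 4 h, and 9.73 and 9.71 at 8 h. In jmj17-1 the arrays of 4 and 8 h overlapped those of the dark, and the highest value of the gene came from the dark array that stood apart. In wild type AT5G27850 fell by 0.33 at 2 h (SE 0.10, adjusted p = 0.00797), differed by -0.19 at 4 h (adjusted p = 0.105) and fell by 0.25 at 8 h (adjusted p = 0.0396). The 4 h value passed without the first wild-type dark array (-0.26, adjusted p = 0.0484), without the outlying jmj17-1 dark array (adjusted p = 0.0402) and after median centring (-0.25, adjusted p = 0.0297). The 8 h call was lost in the full value table (adjusted p = 0.0663) and without the second wild-type dark array (-0.22, adjusted p = 0.0945), the third (-0.20, adjusted p = 0.121), or either wild-type array at 8 h (adjusted p = 0.104 and 0.129). In jmj17-1 the difference at 4 h was -0.08 (adjusted p = 0.493), or 0.04 without the outlying dark array, and at 8 h it was -0.13 (adjusted p = 0.25), or -0.02 without that array.

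In jmj17-1, 8 of 8 probe sets passed after 2 h. This is a description only, since that comparison appears to have chosen the rows and 99.8% of all rows passed in it. The single-locus differences ran from -0.46 to -0.30, or from -0.43 for RPS18C to -0.26 for EMB3010 without the outlying dark array. After 4 h, 7 of 8 passed, 6 of them lower, beside 76.3% of all rows passing, 44.4% lower and 31.9% higher. After 8 h, 4 of 8 passed, 3 of them lower, beside 78.9% passing, 47.7% lower and 31.1% higher. Among the single-locus probe sets RPS18C and EMB3010 passed, 2 of 6. The medians of the 6 single-locus probe sets were -0.47 at 4 h and -0.17 at 8 h, against -0.14 and -0.19 over all rows. The jmj17-1 values at 4 and 8 h share their dark arrays with the comparison that appears to have chosen the rows.

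**Figure D2:**
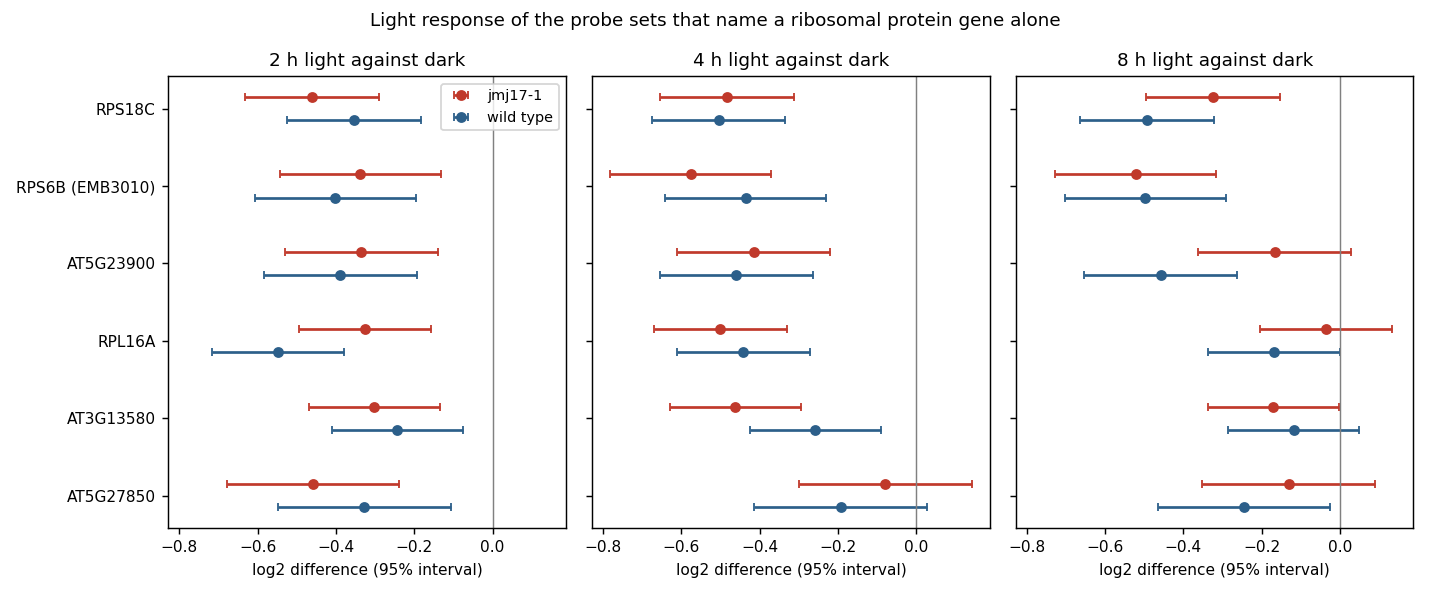
Log2 difference between light and dark (horizontal axis, with 95% intervals from the fit) for the 6 single-locus ribosomal protein probe sets (rows) after 2, 4 and 8 h of light (panels), jmj17-1 in red above wild type in blue. At 2 h every interval lies below zero; at 8 h the intervals of RPS18C and EMB3010 lie below zero in both genotypes, those of AT5G23900, AT5G27850 and RPL16A in wild type and that of AT3G13580 in jmj17-1, the last 2 only just, and the others take in zero.

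The later course within light was set out by comparing 8 h with 2 h, a comparison added after the levels had been seen. In wild type 2 of 8 probe sets passed, both higher at 8 h, beside 57.8% of all rows passing and 22.6% passing and higher. That last share was 29.5% after quantile normalisation and 27.7% after median centring, and 3 of 8 members passed under each, AT3G13580 being added (adjusted p = 0.0328 and 0.0386). On the deposited scale they were RPL16A, higher by 0.38 (SE 0.09, adjusted p = 0.00162), and the shared probe set of PSBR and RPL24A. In jmj17-1 3 of 8 passed, all 3 higher, beside 54.8% and 23.5%: the same 2 probe sets, with RPL16A higher by 0.29 (SE 0.09, adjusted p = 0.0106), and AT5G27850, higher by 0.33 (SE 0.11, adjusted p = 0.0233). After quantile normalisation and after median centring 4 of 8 passed in jmj17-1, beside 28.5% and 27% of all rows passing and higher, the probe set of AT5G02870 and AT5G44450 being added (adjusted p = 0.0148 and 0.0409). The jmj17-1 arrays at 2 h also appear to have helped choose the rows of the table, so the jmj17-1 counts are read with that. The jmj17-1 calls of RPL16A and AT5G27850 were both lost without the second array at 2 h (adjusted p = 0.117 and 0.131) and without the first array at 8 h (adjusted p = 0.106 and 0.116). EMB3010 differed by -0.18 in jmj17-1 (adjusted p = 0.154) and by -0.10 in wild type (adjusted p = 0.453).

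The mutant was then compared with wild type at each time, which asks whether the mutation of JMJ17 goes with a shift of these genes. In the dark 0 of 8 members passed, beside 1.8% of all rows. At 2, 4 and 8 h 0 of 8 passed, beside 5.27%, 2.72% and 1.27% of all rows. For the average over the 4 times 0 of 8 passed, beside 8.76%. In these 5 limma comparisons 0 members had an unadjusted p under 0.05. For the 6 single-locus probe sets, differences between jmj17-1 and wild type ran from -0.09 to 0.13 in the dark, from -0.22 to 0.16 at 2 h, from -0.17 to 0.03 at 4 h and from -0.06 to 0.20 at 8 h. Averaged over the 4 times, their differences ran from -0.06 to 0.05, and the 95% intervals reached from -0.18 to 0.14, so larger average shifts in either direction lay outside every interval.

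Some of these values show the scale of the spread. At 8 h RPS18C was at 10.90 and 10.70 in jmj17-1 and at 10.62 and 10.63 in wild type, a difference of 0.18 (SE 0.09, adjusted p = 0.375) between arrays that did not overlap. AT5G23900 differed by 0.20 at 8 h (SE 0.10, adjusted p = 0.377). At 2 h AT5G27850 was at 9.47 and 9.37 in jmj17-1 and at 9.62 and 9.65 in wild type, a difference of -0.22 (SE 0.11, adjusted p = 0.315). In the dark AT3G13580 differed by 0.13 (SE 0.07, adjusted p = 0.291), with all 3 jmj17-1 arrays above all 3 wild-type arrays. In each of the 4 comparisons 3 of 8 members had arrays that did not overlap between the genotypes, against 24% of all rows before light and 53.6%, 49.1% and 49.8% of them at 2, 4 and 8 h of light. The members so separated were not the same at all times. Without the outlying jmj17-1 dark array the dark difference of AT5G27850 was -0.20 in place of -0.08 (adjusted p = 0.286), that of EMB3010 was -0.12 in place of -0.03 (adjusted p = 0.606), and that of RPS18C was -0.02 in place of 0.01 (adjusted p = 0.934).

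**Figure D3:**
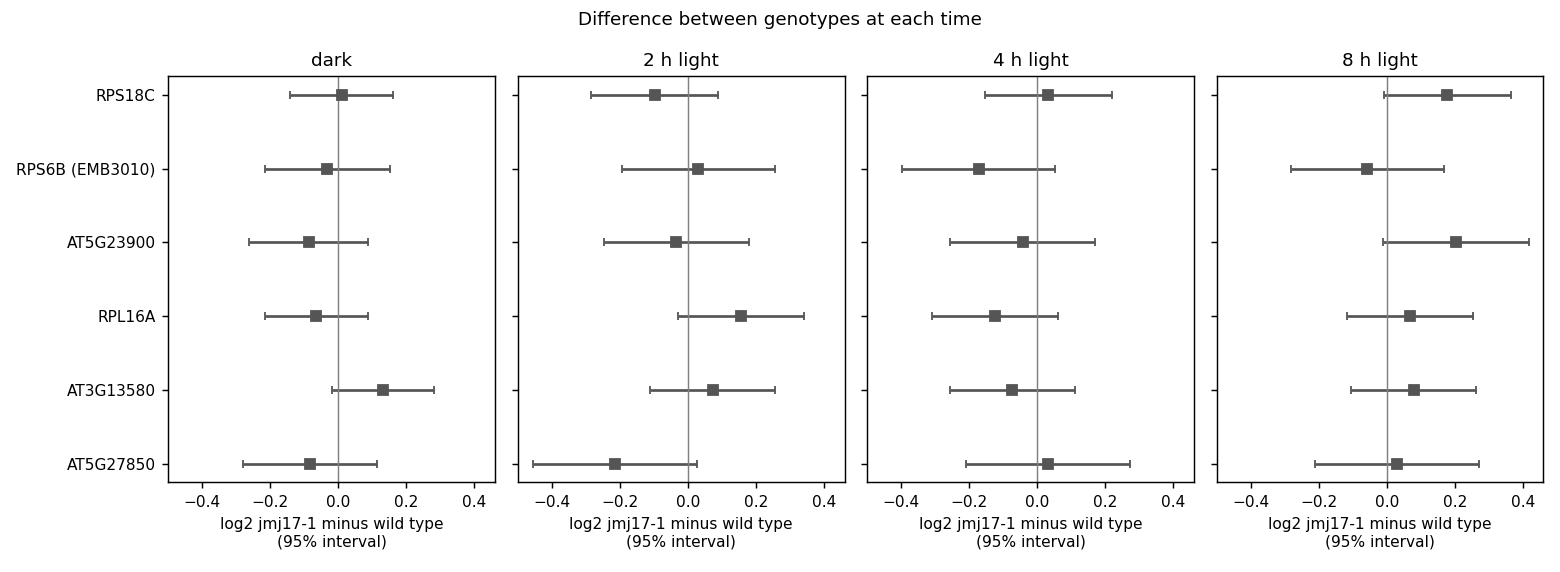
Log2 difference between jmj17-1 and wild type (horizontal axis, with 95% intervals from the fit) for the 6 single-locus ribosomal protein probe sets (rows) in the dark and after 2, 4 and 8 h of light (panels). Every interval takes in zero, and the differences run from -0.22 for AT5G27850 at 2 h to 0.20 for AT5G23900 at 8 h.

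Whether the light response itself differed between the genotypes was tested as an interaction. The rows appear to have been chosen for a response in jmj17-1 at 2 h. A gene that responded in wild type alone at that time would thus be missing, which limits what the count at 2 h can show. The interactions at 4 and 8 h share the jmj17-1 dark arrays with that comparison. None of the 8 probe sets passed at 2 h or at 4 h, beside 0.102% of all rows at each time, or at 8 h, beside 1.14%. An unadjusted p under 0.05 occurred for 0 members at 2 h, 0 at 4 h and 1 at 8 h. That 1 was AT5G23900, whose change from dark to 8 h differed by 0.29 between jmj17-1 and wild type (SE 0.13, unadjusted p = 0.0404, adjusted p = 0.22), being -0.17 in jmj17-1 and -0.46 in wild type. For RPL16A at 2 h the interaction was 0.22 (SE 0.11, adjusted p = 0.397), with changes of -0.33 in jmj17-1 and -0.55 in wild type. The 95% intervals of the interactions of the 6 single-locus probe sets reached from -0.44 to 0.57 over the 3 times, so the arrays do not settle differences within those bounds.

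The 2 shared probe sets did not go with the 6 others in every respect. The probe set of PSBR and RPL24A is aligned in the deposited table to chromosome 1, where PSBR, a gene of a photosystem II protein, lies, while RPL24A lies on chromosome 2. It read 11.70, 12.11 and 11.48 on the dark jmj17-1 arrays, then 12.45 and 12.43 at 2 h, 12.74 and 12.71 at 4 h, and 12.94 and 12.97 at 8 h. The wild-type arrays read 11.66, 11.79 and 11.60 before light, then 12.44 and 12.25 at 2 h, 12.64 and 12.73 at 4 h, and 12.89 and 12.96 at 8 h. It was the member that was higher in light. In wild type PSBR;RPL24A rose by 0.66, 1.00 and 1.24 at 2, 4 and 8 h (SE 0.13 each, adjusted p = 0.000288, 8.22e-06 and 4.76e-07). In jmj17-1 it rose by 0.96 at 4 h and 1.19 at 8 h, or by 1.13 and 1.36 without the outlying dark array. Without that array its dark difference between jmj17-1 and wild type was -0.09 in place of 0.08 (adjusted p = 0.714). The alignment places it at PSBR, and a level of RPL24A was not obtained.

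The probe set of AT5G02870 and AT5G44450 has an alignment that overlaps AT5G44450 and not AT5G02870, and AT5G44450 is annotated to methylation of protein N-termini. It read 7.01, 7.07 and 7.001 on the dark jmj17-1 arrays, then 6.22 and 6.20 at 2 h, 6.53 and 6.67 at 4 h, and 6.35 and 6.41 at 8 h. Wild-type readings were 7.06, 7.08 and 7.04 before light, then 6.49 and 6.24 at 2 h, 6.49 and 6.41 at 4 h, and 6.42 and 6.47 at 8 h. Every light array was lower than every dark array in both genotypes. In wild type AT5G02870;AT5G44450 fell by 0.70, 0.61 and 0.61 at 2, 4 and 8 h (SE 0.08 each, adjusted p = 1.3e-06, 7.33e-06 and 4.25e-06), and these values are counted with the members only because the locus column names AT5G02870.

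The table held 10 further probe sets of a single locus whose annotation places them in the cytosolic ribosome, found by an annotation rule set after the table was opened. In wild type 9 of 10 passed at 2 h, 5 lower and 4 higher. At 4 h 8 passed, 6 lower and 2 higher, and at 8 h 9 passed, 6 lower and 3 higher. These counts stand beside 89.5%, 71.5% and 80.3% of all rows passing, with 49%, 40.1% and 48.6% lower, and nothing is read from how many passed. Their medians were -0.22, -0.43 and -0.45 at the 3 times, beside the medians of all rows given above. AT2G40010 had the lowest difference of the 10 at each time, -1.32 at 2 h (SE 0.11, adjusted p = 3.01e-08). Its mean level at 8 h was 5.86 in jmj17-1 and 5.92 in wild type, against dark means of 7.51 in jmj17-1 and 7.54 in wild type. At 2 h the 4 that rose were SAG24 by 0.52 (SE 0.11), AT2G32220 by 0.52 (SE 0.12), AT2G45710 by 0.42 (SE 0.11) and AT1G69610. The last is among the dimmest rows of the table, at wild-type mean levels of 3.86 at 2 h and 3.09 in the dark, so no size is given for it. SAG24, also named RPL10C, encodes ribosomal protein L10 and takes its symbol from senescence. Between jmj17-1 and wild type 0 of these 10 passed at any of the 4 times in the same limma fit. Of all rows 1.8%, 5.27%, 2.72% and 1.27% passed in the dark and at 2, 4 and 8 h. An unadjusted p under 0.05 occurred for 1, 0, 2 and 1 of the 10 at these times.

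Other genes of ribosome production and protein synthesis were taken from lists drawn up by gene function. For every list below, the wild-type counts at 2, 4 and 8 h stand beside 89.5%, 71.5% and 80.3% of all rows passing, with 40.5%, 31.3% and 31.7% higher and 49%, 40.1% and 48.6% lower. With so few genes measured, nothing particular to a list is read from its counts. Ribosome biogenesis genes, which act in making ribosomal RNA and assembling subunits were measured for 7 of 40 listed genes. Their difference from the ribosomal protein probe sets was not tested. In wild type 6 rose at 2 h, 5 at 4 h and 6 at 8 h, with 0 lower, at medians of 0.42, 0.30 and 0.31. AT3G15460 rose by 0.72 (SE 0.14) and PPAN, an assembly factor of the large subunit, by 0.57 (SE 0.13) at 2 h, and NRPA2, a core subunit of RNA polymerase I, rose by 0.78 (SE 0.10) at 4 h and at 8 h. In jmj17-1 5 of 7 rose at 4 h and 3 of 7 at 8 h, beside 31.9% and 31.1% of all rows. OLI2, a nucleolar protein of the NOP2 family, was lower in jmj17-1 than in wild type at 4 h, with a log2 difference of -0.63 (SE 0.14, adjusted p = 0.0294). It was the 1 gene of this list that passed in a genotype comparison at a single time, beside 2.72% of all rows at 4 h.

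Cytosolic translation factors were mixed. Of 52 listed genes 9 were measured, and in wild type 6 rose and 3 fell at 2 h, 4 rose and 4 fell at 4 h, and 4 rose and 4 fell at 8 h. AT5G12110, a gene of elongation factor 1B, rose by 2.35 at 2 h (SE 0.21), by 0.89 at 4 h and by 0.68 at 8 h. EIF4E, the cap-binding initiation factor, rose by 0.68 (SE 0.08) at 2 h, while AT4G27130, of the initiation factor 1 family, fell by 0.51 (SE 0.08) at 8 h. AT5G12110 was also higher in jmj17-1 than in wild type at 4 h, by 0.99 (SE 0.22, adjusted p = 0.0289). It was the 1 of the 9 that passed there, beside 2.72% of all rows. Plastid ribosomal proteins, which build the ribosome of the chloroplast, showed 3 of 4 measured genes higher and 1 lower at 2 h, 3 higher at 4 h and 4 higher at 8 h, out of 40 listed. At 8 h PSRP3/1 rose by 2.89 (SE 0.30), RPL27 by 2.04 (SE 0.20) and EMB3136 by 2.03 (SE 0.19), and AT5G24490 fell by 1.20 at 2 h (SE 0.12) and rose by 0.84 at 8 h.

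**Figure D4:**
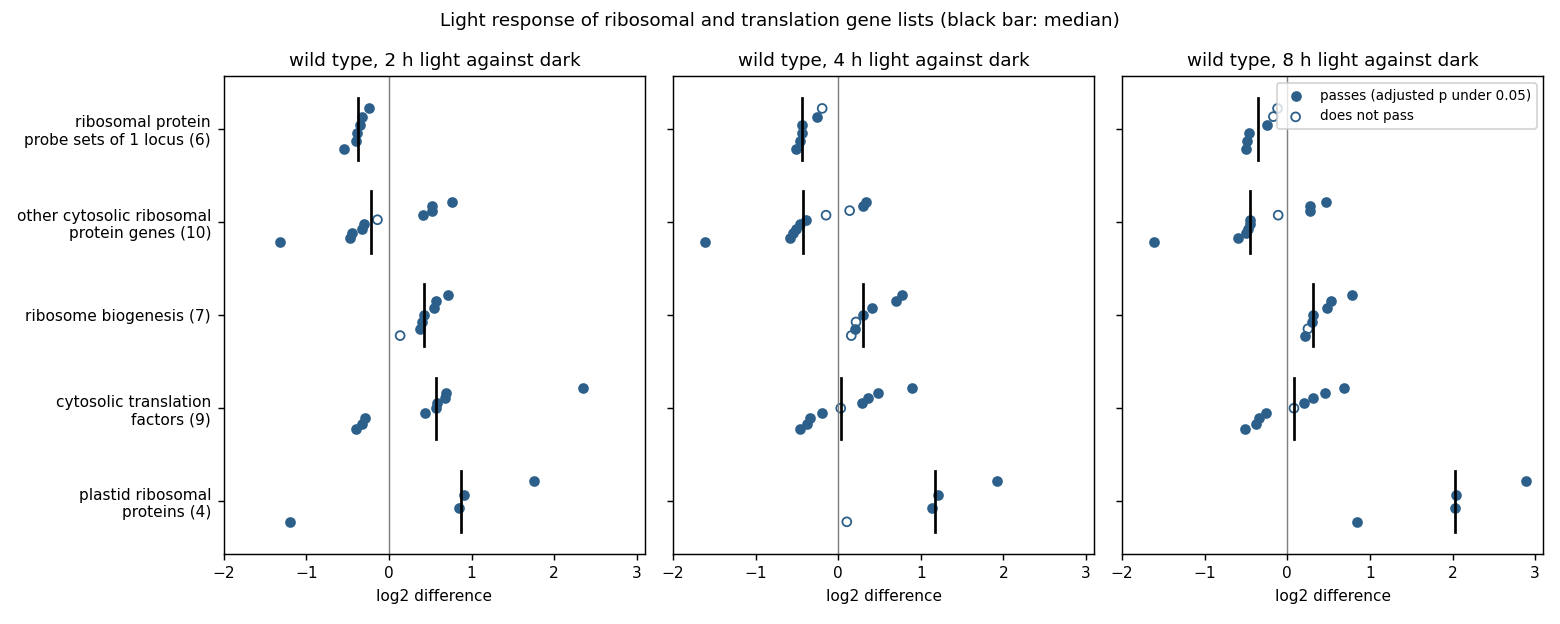
Log2 difference between light and dark in wild type (horizontal axis) for the probe sets of 5 gene groups (rows, with the number measured) after 2, 4 and 8 h of light (panels); filled points passed the test, open points did not, and black bars are medians. The single-locus ribosomal protein probe sets lie below zero at each time, the ribosome biogenesis genes lie above zero, and the plastid ribosomal proteins reach a median of 2.03 at 8 h.

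Genes of growth signalling by the kinases TOR and SnRK1 were measured for 7 of 16 listed. In wild type 3 fell and 2 rose at 2 h, 3 fell at 4 h, and 4 fell and 1 rose at 8 h. So 5, 3 and 5 of 7 passed, beside 89.5%, 71.5% and 80.3% of all rows. In jmj17-1 5 of 7 passed at 4 h and 6 of 7 at 8 h, beside 76.3% and 78.9%. Nothing is read from these counts. PK1, the S6 kinase gene S6K1, rose by 0.84 at 2 h (SE 0.10, adjusted p = 2.38e-06) and differed by -0.04 at 8 h (adjusted p = 0.738). RAPTOR1, a partner of TOR, fell by 0.45 at 2 h (SE 0.10) and by 0.55 at 8 h, and KIN10, a catalytic subunit of SnRK1, fell by 0.40 at 2 h (SE 0.08). ATG2, the gene EBP1, rose by 0.58 at 2 h (SE 0.11). Averaged over the 4 times, PK1 was lower in jmj17-1 than in wild type, with a log2 difference of -0.18 (SE 0.05, adjusted p = 0.0476). It was the 1 gene of the 7 that passed there, beside 8.76% of all rows. That average includes the outlying jmj17-1 dark array.

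Markers of cell types whose share could move with the ribosomal protein values were sparse in the table, and their wild-type counts are read against the same shares of all rows, 49%, 40.1% and 48.6% lower and 40.5%, 31.3% and 31.7% higher. Of 18 genes of dividing cells 3 were measured (CYCB1;4, CDKB2;1 and CDKB2;2), and all 3 fell in wild type at 2, 4 and 8 h, with medians of -0.39, -0.66 and -0.90. In jmj17-1 their mean log2 level per array was 7.34 to 7.54 before light, 7.05 to 7.11 at 2 h, 7.05 to 7.06 at 4 h and 6.93 to 7.01 at 8 h. In wild type it was 7.53 to 7.63, 7.11 to 7.32, 6.85 to 7.12 and 6.74 to 6.86 at the same times. Of 12 root genes 3 were measured (PIP2;4, GL2 and CASP1), and in wild type 3 fell at 2 h, 1 at 4 h and 2 at 8 h. Their mean level per array was 7.93 to 8.02 at 8 h in jmj17-1 and 7.73 to 7.78 in wild type, against 8.88 to 9.07 in the jmj17-1 dark and 8.94 to 9.04 in the wild-type dark. Of 13 genes of green cotyledons 3 were measured (LHCB6, LHCA1 and LHCB3) and all 3 rose at each time in wild type. Their mean level per array was 12.65 to 12.74 at 8 h in jmj17-1 and 12.71 to 12.72 in wild type, against 9.33 to 10.60 in the jmj17-1 dark and 9.49 to 9.67 in the wild-type dark. Averaged over the 4 times GL2 was higher in jmj17-1 than in wild type by 0.21 (SE 0.05, adjusted p = 0.0228). It was the 1 of the 3 root genes that passed there, beside 8.76% of all rows. At the single times 0 of these markers passed between the genotypes in the limma fit. Of all rows 1.8%, 5.27%, 2.72% and 1.27% passed in the dark and at 2, 4 and 8 h. In the dark and at 2, 4 and 8 h an unadjusted p under 0.05 occurred for 2, 1, 0 and 1 of the dividing-cell genes, for 0, 0, 2 and 2 of the root genes, and for 0 of the cotyledon genes at each time. These markers moved with light beside the ribosomal protein genes, and their part in the result was not tested.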

How the data were processed

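The submitters' processing notes name GCOS 1.4. RMA summarisation with quantile normalisation was done by the authors, per the file headers. The deposited intensity columns are headed as raw data, but their log2, centred on each row's median, equalled the authors' deposited log2 block to within 2.02e-06, so they are normalised linear values. The deposited intensities were log2 transformed. Genome builds of the alignments were not given in the sources used here. limma 3.58.1 in R 4.3.3 fitted 1 mean per group over all 18 arrays, with 14 planned contrasts and 2 added ones, 10 residual and 4.91 prior degrees of freedom, and Benjamini-Hochberg adjustment over 6847 rows at 0.05; the fit was tested on simulated data. Genes were joined to RefSeq symbols by locus.

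The members and gene lists were chosen with earlier results of these data known. The lists were ribosome biogenesis, translation factors, plastid ribosomal proteins, TOR and SnRK1 signalling, dividing cells, root, green cotyledon and light response. For each list gene the brightest single-locus probe set was used. Every member was described with all arrays, and up to 4 of the listed genes with the largest differences that passed were eligible to be named per comparison. Alternatives were 2 further scalings, a filter on the dimmest 40% of rows, single-locus members, the arrays compared only, a replicate block, the full value table of 22810 probe sets, and each array left out.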

Additional observations from a re-analysis of the deposited data

How the results depend on the processing

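The count of 0 members passing between jmj17-1 and wild type, and in each interaction, was 0 under each alternative run, each array left out included. Counts for light against dark stayed within 1.5 times under each alternative but one: with single-locus members only, 2 passed in jmj17-1 at 8 h in place of 4. For 8 h against 2 h in wild type, chosen after seeing the data, 1 passed in place of 2 with single-locus members only and without the dimmest 40% of rows, which removes RPL16A and the probe set of AT5G02870 and AT5G44450. The first follows from counting 6 members in place of 8. With each of the 18 arrays left out in turn, the members passing ran from 7 to 8 at 2 h, from 6 to 8 at 4 h and from 5 to 6 at 8 h in wild type; in jmj17-1 they were 8 at 2 h and 7 at 4 h throughout and ran from 4 to 5 at 8 h; for 8 h against 2 h they were 2 in wild type throughout and ran from 1 to 3 in jmj17-1. No single-locus value past the threshold changed sign. Deviations of samples sharing a replicate number correlated at -0.03, -0.03 and 0.14 in the dark, and at 0.09, 0.04 and 0.22 at 2, 4 and 8 h. With 2 arrays per light group there is only 1 such value per light time. Of 3 jmj17-1 dark arrays, 1 correlated best with the wild-type array of its own number. Since these correlations were low, the highest being 0.22, the numbers were not taken as pairs. With the replicate block 8, 7 and 5 members passed at 2, 4 and 8 h in wild type, and 8, 7 and 4 in jmj17-1, with 0 between genotypes. The wild-type call lost under the block was AT5G27850 at 8 h (-0.24, adjusted p = 0.0679).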
